A study of Homo sapiens with 15 samples.

Results

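The genes described here are CAMKK2, CAMKK1 and STK11, which encode the upstream kinases CaMKK2, CaMKK1 and LKB1, the AMPK subunit genes PRKAA1, PRKAA2, PRKAB1, PRKAB2, PRKAG1 and PRKAG2, and PPARGC1A. They were chosen by symbol, and 9 of these 10 genes had a row among the 17272 genes of the LNCaP expression table. PPARGC1A, which encodes the transcriptional coactivator PGC-1alpha, was the gene without a row and so was not analysed here. LNCaP cells are a line of human prostate cancer that responds to androgens. All cells were starved for 2 days in medium with charcoal-stripped serum, which is depleted of steroids. In 10 libraries they were then treated with the synthetic androgen R1881 at 1 nM and, by the titles of the samples, with the solvent DMSO. In the other 5 libraries they received 1 nM R1881 together with 2 µM enzalutamide, a drug that blocks androgen signalling. Cells were collected after 22 h, and the polyadenylated RNA was sequenced. Every library thus came from a single cell line that had received R1881, and cells without androgen were not part of the comparison, which asks how expression differs when androgen signalling is blocked in the presence of androgen.

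AMPK is the kinase with which cells sense energy shortage. It is built of a catalytic alpha subunit, a scaffolding beta subunit and a gamma subunit that binds AMP, ADP and ATP. It becomes active when the activation loop of the alpha subunit is phosphorylated, either by LKB1 when energy is low or by CaMKK2 when calcium rises. Active AMPK slows lipid and protein synthesis and favours glucose uptake, fatty acid oxidation and, through PGC-1alpha, the formation of mitochondria. In prostate cancer, CAMKK2 is known as a gene that is induced by androgens.

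CAMKK2 and the genes of both catalytic subunits had the largest differences between treatments, and their promoters are shown for that reason, together with 1 of the 2 listed for CAMKK1, the paralog of CAMKK2, whose expression did not pass the test. Each sequence is the RefSeq promoter of assembly GRCh38.p14, from 250 bases before to 50 bases after a transcription start listed by RefSeq, read 5′ to 3′ on the strand of the gene. For CAMKK2, CAMKK1 and PRKAA1 this start lies within the bounds that GENCODE gives the gene, which are printed with the values of each gene. Capitals mark the GC box GGGCGG on either strand, with overlapping matches included. The CAMKK2 promoter lies on the minus strand at chr12:121296660-121296959, that of CAMKK1 on the minus strand at chr17:3893004-3893303, that of PRKAA1 on the minus strand at chr5:40798128-40798427 and that of PRKAA2 on the plus strand at chr1:56645064-56645363.
CAMKK2: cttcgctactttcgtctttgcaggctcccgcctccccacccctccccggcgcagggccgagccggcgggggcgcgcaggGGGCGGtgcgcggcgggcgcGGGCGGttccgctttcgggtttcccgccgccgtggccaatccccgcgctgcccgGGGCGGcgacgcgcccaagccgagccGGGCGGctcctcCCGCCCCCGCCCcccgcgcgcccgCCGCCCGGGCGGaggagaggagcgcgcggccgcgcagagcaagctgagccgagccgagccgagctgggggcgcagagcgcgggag
CAMKK1: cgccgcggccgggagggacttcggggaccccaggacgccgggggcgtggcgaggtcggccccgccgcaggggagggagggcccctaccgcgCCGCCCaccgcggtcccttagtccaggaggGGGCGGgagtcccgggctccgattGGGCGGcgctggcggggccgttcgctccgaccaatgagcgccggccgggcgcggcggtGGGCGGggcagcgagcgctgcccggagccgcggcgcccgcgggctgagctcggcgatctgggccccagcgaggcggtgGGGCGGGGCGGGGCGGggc
PRKAA1: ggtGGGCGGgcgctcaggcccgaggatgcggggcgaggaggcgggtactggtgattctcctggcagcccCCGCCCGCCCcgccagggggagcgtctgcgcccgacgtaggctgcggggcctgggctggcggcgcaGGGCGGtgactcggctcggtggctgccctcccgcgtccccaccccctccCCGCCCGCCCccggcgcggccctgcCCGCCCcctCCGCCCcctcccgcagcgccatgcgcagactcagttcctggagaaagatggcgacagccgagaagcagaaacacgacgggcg
PRKAA2: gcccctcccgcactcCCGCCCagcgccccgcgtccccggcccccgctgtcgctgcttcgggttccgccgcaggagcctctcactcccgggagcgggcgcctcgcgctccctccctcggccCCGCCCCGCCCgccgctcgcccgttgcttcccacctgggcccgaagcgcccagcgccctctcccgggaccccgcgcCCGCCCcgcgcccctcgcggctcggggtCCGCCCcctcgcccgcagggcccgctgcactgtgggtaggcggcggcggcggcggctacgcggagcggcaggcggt
The GC box was found 8 times in the CAMKK2 promoter, 7 times in that of CAMKK1 shown, 8 times in that of PRKAA1 and 5 times in that of PRKAA2. The other promoter listed for CAMKK1, at chr17:3890694-3890993, held 0. Of all 35116 RefSeq promoters of this length, 45% held at least 1 GC box. These matches describe the letters of the windows and not the binding of a factor.

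Library totals on genes were 15830745 to 24316740 reads for R1881 and 21188661 to 25416052 reads for R1881 + enzalutamide. The values are CPM (read counts scaled to library size) as deposited, with library sizes rescaled by the authors. As a check of the treatment, the androgen-induced genes KLK2, FKBP5 and TMPRSS2 had log2 fold changes of -4.87, -4.99 and -3.56 with enzalutamide. The markers KRT8 and KRT18 of luminal prostate epithelium were expressed in both treatments and fell with enzalutamide, with log2 fold changes of -2.18 and -2.05. Other markers of this epithelium, FOXA1, HOXB13 and FOLH1, did not fall, with log2 fold changes of 0.09, 0.16 and 1.04. The libraries of FOXA1 and HOXB13 overlapped between treatments, and those of FOLH1 did not. Of 13 markers of leukocytes, fibroblasts, endothelium and basal epithelium, 9 had no row, and the other 4 (COL1A1, LUM, VWF and KRT14) summed to between 8.33 and 12.2 CPM with R1881 and between 11.7 and 17.5 CPM with R1881 + enzalutamide. KRT14 was at 0 in the lowest R1881 + enzalutamide library. The deviations of several libraries from their group means went with gene GC content. Spearman's rho over genes ranged from -0.62 in R1881 replicate 10 to 0.73 in R1881 replicate 6 among the R1881 libraries, and from -0.48 in replicate 4 to 0.70 in replicate 2 among the R1881 + enzalutamide libraries. It was above 0.5 in R1881 replicates 5 and 6 and R1881 + enzalutamide replicate 2, and below -0.4 in R1881 replicates 7, 9 and 10 and R1881 + enzalutamide replicates 1 and 4. By their labels, R1881 libraries carry the numbers 51 to 55 and 71 to 75, and libraries with both agents carry 81 to 85. What the numbers stand for was not stated.

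Of the 9 genes with values, 2 fell and 4 rose with enzalutamide, and 3 did not pass the test. CAMKK2 and the beta subunit gene PRKAB2 were lower, while the alpha subunit genes PRKAA1 and PRKAA2, the beta subunit gene PRKAB1 and the gamma subunit gene PRKAG2 were higher. The test was limma on log2(CPM + 0.5), run over all 17046 genes with a mean of at least 0.5 CPM, and an adjusted p under 0.05 was required. By this rule 62.5% of all tested genes differed between treatments, 32.7% being lower and 29.8% higher, so that a count of 6 among 9 genes is close to the share of all genes. With library totals set to 1000000 the share of higher genes among those called moved from 47.7% to 60.8%, and 2 of the 9 genes were then lower and 5 higher. In the same 6 genes, the values of the 5 R1881 + enzalutamide libraries did not overlap those of the 10 R1881 libraries, as was the case for 37.2% of all tested genes. The median log2 fold change was 0.05 over the 9 genes and -0.01 over all tested genes.

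**Figure D1:**
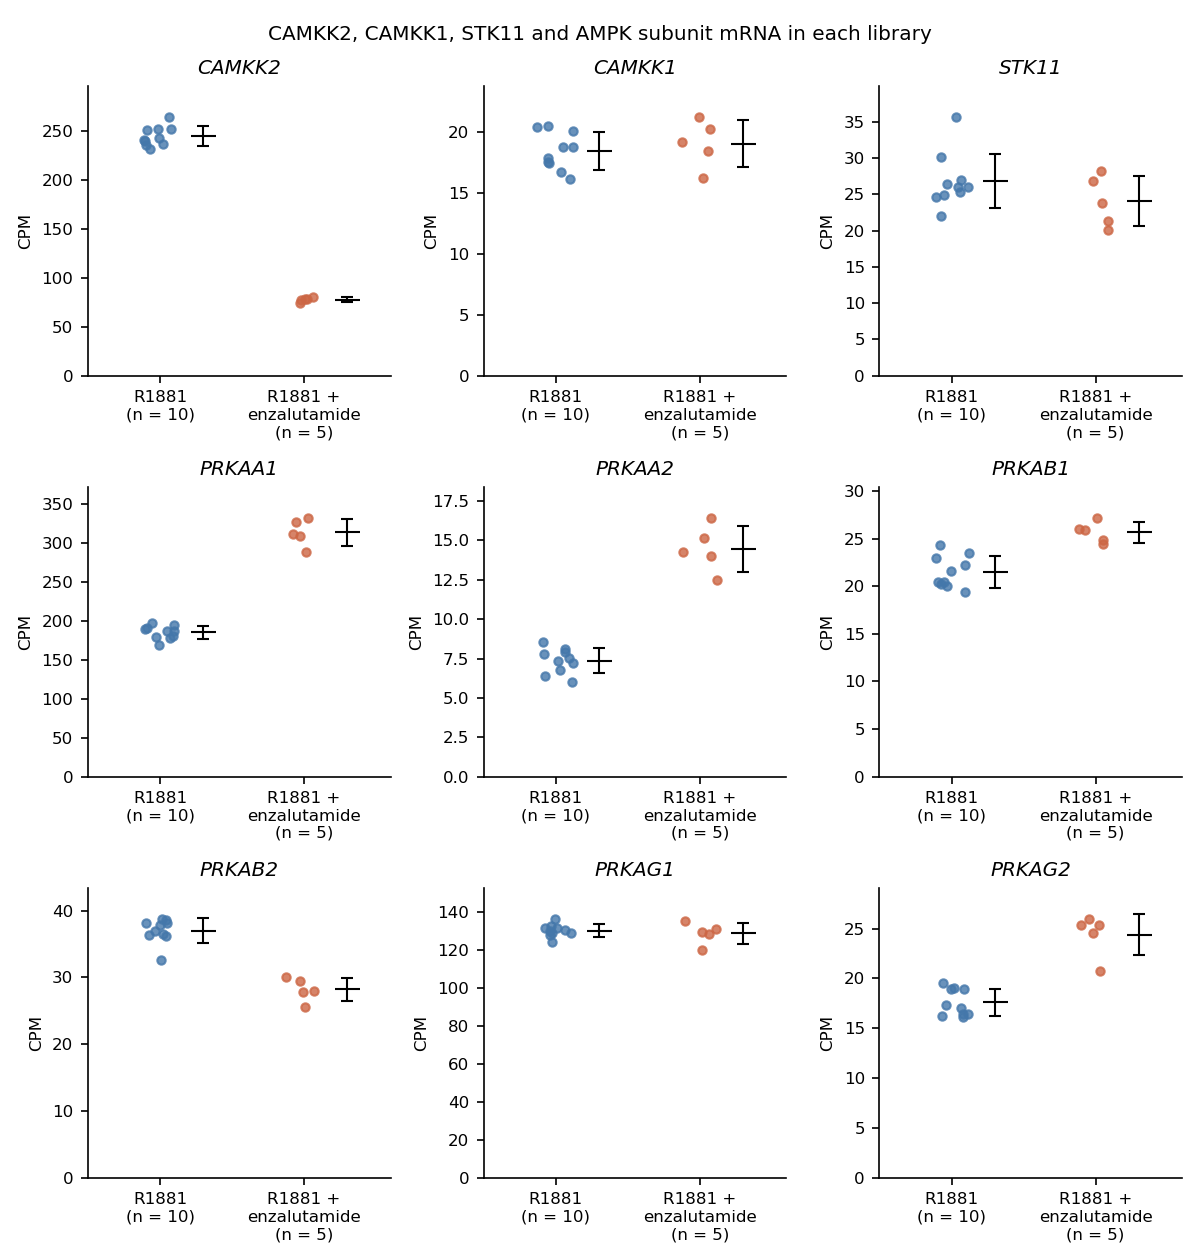
Expression in CPM of each of the 9 genes, with a point for each library of R1881 (n = 10) and R1881 + enzalutamide (n = 5), and the mean with SD as a black bar. The treatments lie apart for CAMKK2, PRKAA1, PRKAA2, PRKAB1, PRKAB2 and PRKAG2 and overlap for CAMKK1, STK11 and PRKAG1.

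Among the upstream kinases, expression of CAMKK2 fell by 67.8% in median CPM. CAMKK2 spans 121237675 to 121298308 of chromosome 12 (GRCh38, minus strand) and has 17 exons in its canonical transcript. In the R1881 libraries it was expressed at between 231 and 264 CPM, with a median of 242 CPM. With enzalutamide the libraries held 74.1, 78.2, 77.0, 77.8 and 80.7 CPM. The highest of these lay far below the lowest R1881 library, and the spread within each treatment was narrow beside the difference. The mean was 244 ± 9.94 CPM (SD, n = 10) in the R1881 libraries and 77.6 ± 2.36 CPM (SD, n = 5) with enzalutamide added. On the log2(CPM + 0.5) scale the fold change was -1.65 (adjusted p = 4.73e-20 by limma, standard error 0.034), the 289th lowest of the 17046 tested genes. A fall of at least 2-fold was found for 4.19% of all tested genes. Between 1593 and 5984 reads per library stood behind these values. In RNA from bulk cells, fewer cells expressing a gene and less of its RNA per cell cannot be told apart.

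CAMKK1 encodes the other CaM kinase kinase and lies on chromosome 17 from 3860315 to 3894891 on the minus strand. It was expressed at between 16.2 and 20.5 CPM with R1881 (median 18.4 CPM). The R1881 + enzalutamide libraries held 16.2, 21.3, 20.2, 19.2 and 18.4 CPM and overlapped the R1881 libraries. The log2 fold change was 0.05, with a 95% interval from -0.10 to 0.19 (adjusted p = 0.579 by limma).

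STK11 encodes LKB1, the kinase that activates AMPK when energy is low, and lies on chromosome 19 from 1177558 to 1228431 on the plus strand. With R1881 its expression ranged from 22.0 to 35.7 CPM around a median of 26.0 CPM, and the R1881 + enzalutamide libraries held 20.1, 28.2, 23.8, 21.3 and 26.9 CPM. The treatments overlapped. Its log2 fold change of -0.15 had a 95% interval from -0.34 to 0.04 (adjusted p = 0.151 by limma). The highest value of each treatment was that of the library with its highest rho with GC content, R1881 replicate 6 and R1881 + enzalutamide replicate 2. The lowest values were those of R1881 replicate 10 and R1881 + enzalutamide replicate 1, in which rho was negative, and the median GC content of the STK11 transcripts is 64.7%. In R1881 + enzalutamide replicate 5, however, STK11 stood at 26.9 CPM with a rho of 0.01. Whether GC content set these values was not tested. After the GC trend of each library was removed, the log2 fold change was -0.14 and passed the test (adjusted p = 0.00333 by limma). Without the 3 libraries in which rho was above 0.5 it was also -0.14 and did not pass (adjusted p = 0.0659 by limma). The annotation places CBARP on the other strand and HMGB2P1 on the same strand within the bounds of STK11, and it is not stated if reads were counted by strand.

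Both genes of the catalytic alpha subunit rose with enzalutamide. PRKAA1, which encodes alpha1, lies on chromosome 5 from 40759389 to 40798374 on the minus strand, and its median CPM was 1.67 times as high with enzalutamide. With R1881 it was expressed at between 170 and 198 CPM, with a median of 187 CPM. The R1881 + enzalutamide libraries held 327, 289, 310, 332 and 312 CPM. All of them lay above the highest R1881 library. The mean was 185 ± 8.47 CPM (SD, n = 10) in the R1881 libraries and 314 ± 17.1 CPM (SD, n = 5) with enzalutamide added, a log2 fold change of 0.76 (adjusted p = 3.82e-13 by limma, standard error 0.039).

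PRKAA2 encodes alpha2 and lies on chromosome 1 from 56645314 to 56715335 on the plus strand. Its median CPM was 1.91 times as high with enzalutamide. Expression was low with R1881, between 6.04 and 8.53 CPM with a median of 7.43 CPM. With enzalutamide the libraries held 15.2, 12.5, 16.4, 14.01 and 14.2 CPM. The treatments did not overlap, and the lowest value with enzalutamide was that of replicate 2, in which rho with GC content was the highest of this treatment, as for PRKAA1. The log2 fold change was 0.93 (adjusted p = 1.97e-09 by limma, standard error 0.079), and 0.83 with the trend on GC content removed. The smallest count behind these values was 96 reads in a library.

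The genes of the beta subunit, which holds the complex together and binds glycogen, moved in opposite directions. PRKAB1 (beta1, chromosome 12 from 119667864 to 119681624, plus strand) was expressed at between 19.4 and 24.3 CPM with R1881, with a median of 21.0 CPM, and at 24.8, 25.9, 27.2, 24.4 and 26.0 CPM with R1881 + enzalutamide. The highest R1881 library and the lowest R1881 + enzalutamide library lay close together, at 24.3 and 24.4 CPM. The rise, of 0.25 on the log2 scale (adjusted p = 0.000496 by limma, standard error 0.055), was the smallest of those that passed the test among these genes. PRKAB2 (beta2, chromosome 1 from 147155106 to 147172550, minus strand) was expressed at between 32.6 and 38.7 CPM with R1881, with a median of 37.4 CPM. With enzalutamide it stood at 27.8, 25.6, 28.0, 29.5 and 30.1 CPM. These values lay below every R1881 library, the nearest of which, R1881 replicate 6, stood apart from the others of its treatment. The log2 fold change of PRKAB2 was -0.39 (adjusted p = 3.92e-07 by limma, standard error 0.047).

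PRKAG1 and PRKAG2 are the gamma subunit genes examined here, and encode the part of AMPK that binds nucleotides. Only PRKAG2 passed the test in the fit over all libraries. PRKAG1 (gamma1, chromosome 12 from 49002274 to 49018807, minus strand) was expressed at between 124 and 136 CPM with R1881 (median 130.2 CPM) and at between 120.1 and 135 CPM with R1881 + enzalutamide (median 129 CPM). The ranges lay on top of each other. Its log2 fold change was -0.02 with a 95% interval from -0.08 to 0.05 (adjusted p = 0.676 by limma). The direction depended on the scaling, since with library totals set to 1000000 it was 0.08 and passed the test (adjusted p = 0.0214 by limma). PRKAG2 (gamma2, chromosome 7 from 151556124 to 151877214, minus strand) rose from between 16.1 and 19.5 CPM with R1881, with a median of 17.2 CPM, to 26.0, 20.8, 25.3, 25.3 and 24.5 CPM with R1881 + enzalutamide. Replicate 2 lay below the other R1881 + enzalutamide libraries but above every R1881 library. The log2 fold change of PRKAG2 was 0.46 (adjusted p = 2.10e-06 by limma, standard error 0.063). PRKAG2-AS1, a noncoding gene on the opposite strand within its bounds, had 0.931 ± 0.288 CPM (SD, n = 10) in the R1881 libraries and 2.02 ± 0.314 CPM (SD, n = 5) with enzalutamide added. The study prepared its libraries with a stranded kit, but the use of the strand in counting is not given. Reads of this gene and of PRKAG2 may thus not be fully separated. Other annotated genes also overlap PRKAA1, PRKAB1 and PRKAG1, and their reads were not examined.

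**Figure D2:**
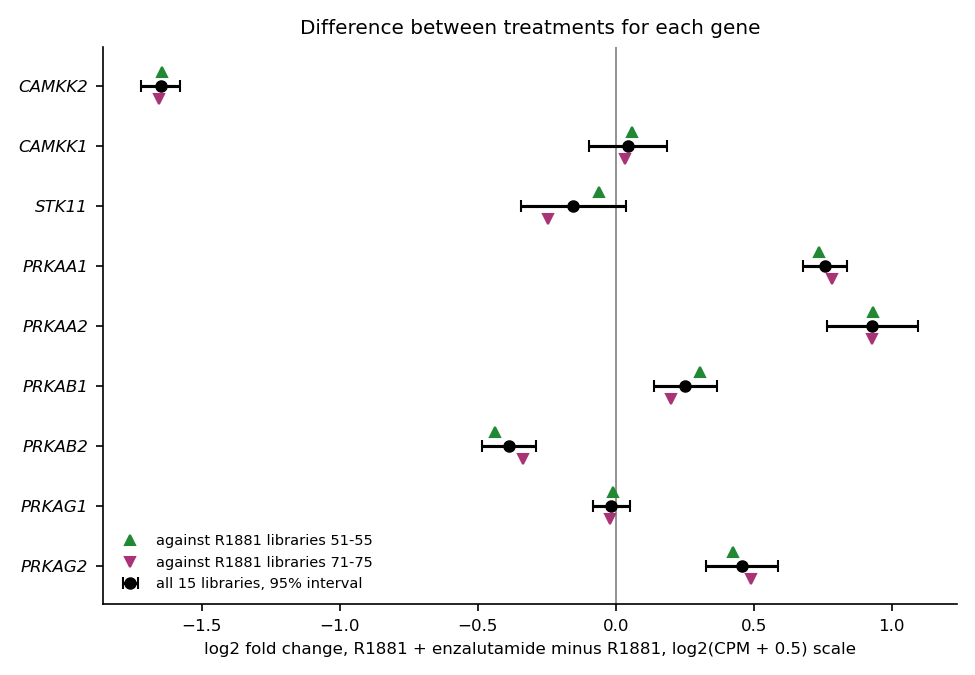
Log2 fold change (R1881 + enzalutamide minus R1881, log2(CPM + 0.5) scale) of each gene over all 15 libraries with its 95% interval by limma, and against the R1881 libraries 51 to 55 or 71 to 75 alone. CAMKK2 stands at -1.65 and PRKAA2 at 0.93, and for each of the 9 genes both comparisons have the same sign.

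The 2 number series of R1881 libraries gave similar values for these genes. The log2 fold change of CAMKK2 was -1.64 against the libraries 51 to 55 and -1.65 against the libraries 71 to 75, that of PRKAA1 was 0.73 and 0.78, and that of PRKAA2 was 0.93 in both. For PRKAB1 it was 0.30 and 0.20, for PRKAB2 -0.44 and -0.34, and for PRKAG2 0.43 and 0.49. Each of these 6 genes passed the test against either series. STK11 varied most, with -0.06 against the libraries 51 to 55 and -0.25 against the libraries 71 to 75, and passed in neither (adjusted p = 0.551 and 0.0601 by limma). Between the series themselves, the R1881 libraries 71 to 75 and 51 to 55 differed by an adjusted p under 0.05 by limma in 3.17% of genes, and in 0 of these 9 genes. At an unadjusted p under 0.05 by limma, 2 of the 9 genes differed, as did 23.9% of all tested genes. No series of numbers holds both treatments, so the treatment and a difference between series cannot be told apart.

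Levels of different genes were compared per length, as CPM per kilobase of exon, with the exonic length of each gene from GENCODE v44. This length joins the exons of all annotated transcripts of a gene, and was 16.58 kilobases for PRKAG2 and 4.17 kilobases for PRKAG1. The isoforms used in these cells were not examined. Order and shares by length therefore depend on this choice of length. With R1881, CAMKK2 had the highest level of the 9 genes at 34.1 ± 1.39 CPM per kilobase (SD, n = 10), followed by PRKAG1 at 31.2 ± 0.770 and PRKAA1 at 28.3 ± 1.29 CPM per kilobase. The libraries of CAMKK2 overlapped those of PRKAG1, and those of PRKAG1 overlapped those of PRKAA1. All libraries of PRKAA1 lay above those of the next gene. PRKAB2 followed at 6.78 ± 0.336 CPM per kilobase, and then PRKAB1, STK11 and CAMKK1 at between 2.48 and 3.56 CPM per kilobase. Of these, PRKAB1 overlapped STK11, and STK11 overlapped CAMKK1. PRKAG2 at 1.06 ± 0.0824 and PRKAA2 at 0.787 ± 0.0836 CPM per kilobase were lowest. With enzalutamide this order changed at the top. PRKAA1 was then highest at 47.9 ± 2.61 CPM per kilobase (SD, n = 5), PRKAG1 remained at 30.9 ± 1.31 and CAMKK2 came next at 10.8 ± 0.328 CPM per kilobase, with no overlap between them. At the bottom, PRKAA2 at 1.55 ± 0.155 and PRKAG2 at 1.47 ± 0.125 CPM per kilobase overlapped.

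**Figure D3:**
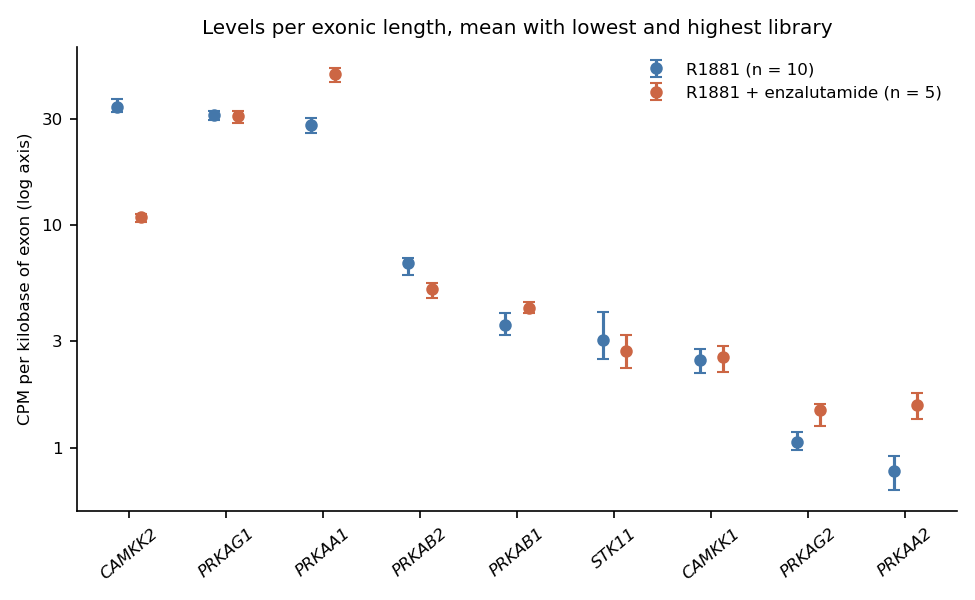
Level of each gene in CPM per kilobase of exon on a log axis, as the mean with the lowest and highest library, for R1881 (n = 10) and R1881 + enzalutamide (n = 5), ordered by the level with R1881. CAMKK2 falls from 34.1 to 10.8 CPM per kilobase while PRKAA1 rises from 28.3 to 47.9.

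Levels were also summed over the genes of each subunit that are described here, and no others. The alpha level was 29.1 ± 1.32 CPM per kilobase with R1881 (SD, n = 10) and 49.5 ± 2.68 CPM per kilobase with R1881 + enzalutamide (SD, n = 5). The lowest R1881 + enzalutamide library, at 45.4 CPM per kilobase, lay above the highest R1881 library, at 31.0 CPM per kilobase. The beta level was 10.3 ± 0.412 and 9.41 ± 0.329 CPM per kilobase, and the gamma level 32.3 ± 0.797 and 32.4 ± 1.43 CPM per kilobase, with libraries that overlapped between treatments for both. Beta was the lowest of the subunits in each treatment, and with enzalutamide alpha took the place of gamma as the highest by the mean. With R1881 the libraries of alpha, up to 31.0 CPM per kilobase, overlapped those of gamma, from 30.7 CPM per kilobase. For the CaM kinase kinases the sum was 36.6 ± 1.39 CPM per kilobase with R1881 and 13.4 ± 0.502 CPM per kilobase with R1881 + enzalutamide. These sums were not tested.

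Whether the balance between paralogs differed was examined with the log2 ratio of their values in each library, over 5 ratios, using an exact permutation test (two-sided, 3003 regroupings) and Benjamini-Hochberg adjustment over the 5 ratios. The smallest p that this test can give is 0.000666. The log2 ratio of CAMKK2 to CAMKK1 was 3.69 ± 0.133 (SD, n = 10) in the R1881 libraries and 2.00 ± 0.128 (SD, n = 5) with enzalutamide added, a difference of -1.69 (exact permutation p = 0.000666, adjusted 0.000833). By length, CAMKK1 thus made up 6.80% of the CaM kinase kinase level with R1881 and 19.1% with R1881 + enzalutamide. The log2 ratio of CAMKK2 to STK11, the other upstream kinase of AMPK, differed by -1.49 (exact permutation p = 0.000666, adjusted 0.000833).

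Within the beta subunit the balance moved toward PRKAB1. Its log2 ratio to PRKAB2 rose from -0.77 ± 0.136 to -0.13 ± 0.117, a difference of 0.64 (exact permutation p = 0.000666, adjusted 0.000833), and by length PRKAB1 made up 34.4% of the beta level with R1881 and 45.1% with R1881 + enzalutamide. Within the gamma subunit the log2 ratio of PRKAG1 to PRKAG2 fell from 2.85 ± 0.104 to 2.38 ± 0.0696, a difference of -0.47 (exact permutation p = 0.000666, adjusted 0.000833). By the joined exon lengths, PRKAG1 still made up 96.7% and 95.5% of the gamma level. Neither ratio had a library of a treatment within the range of the other. For the alpha subunit the log2 ratio of PRKAA1 to PRKAA2 was 4.568 ± 0.138 and 4.397 ± 0.124, with overlapping libraries, and the difference of -0.17 passed narrowly (exact permutation p = 0.0380, adjusted 0.0380). This call was lost with a pseudocount of 1 (difference -0.13, adjusted exact permutation p = 0.0873) and without any of several single libraries, among them R1881 + enzalutamide replicate 3 (difference -0.12, adjusted exact permutation p = 0.114). PRKAA1 made up 97.3% of the alpha level with R1881 and 96.9% with R1881 + enzalutamide.

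**Figure D4:**
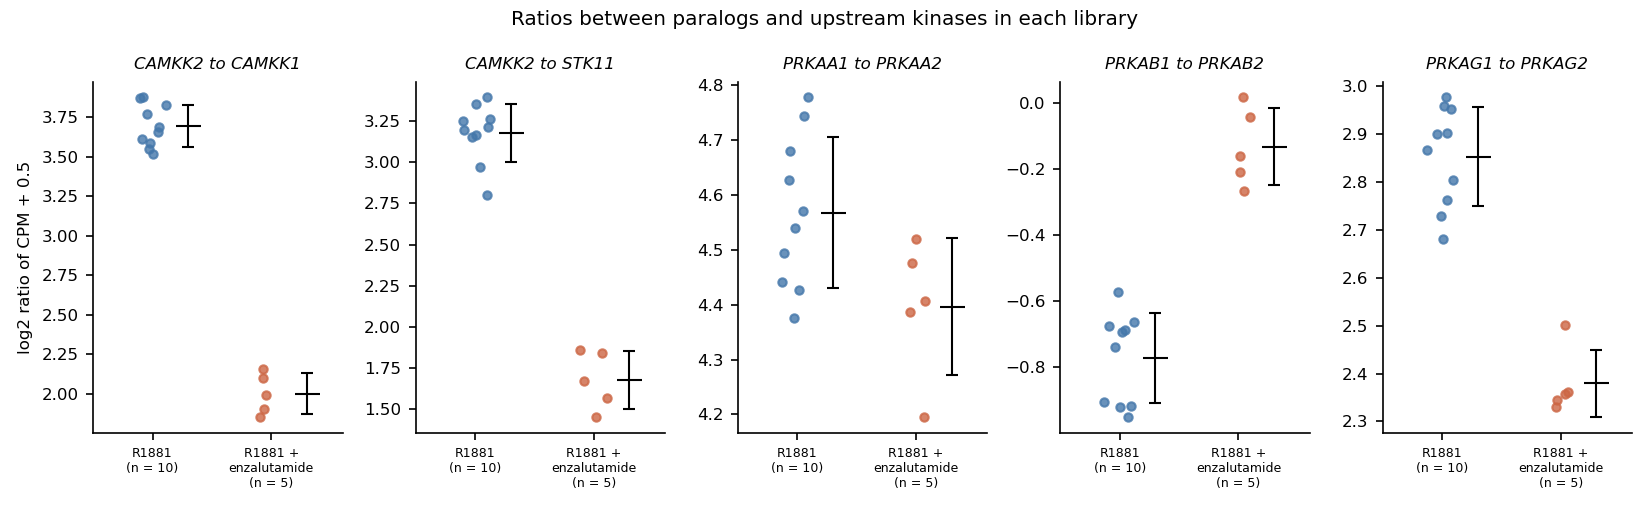
Log2 ratio of CPM + 0.5 between the named genes in each library of R1881 (n = 10) and R1881 + enzalutamide (n = 5), with the mean and SD as a black bar, on an axis of its own for each ratio. The treatments lie apart for 4 of the 5 ratios, and the libraries of the PRKAA1 to PRKAA2 ratio overlap.

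The genes whose profile over the 15 libraries was nearest to that of CAMKK2 were PLPP1, FAM174B, PDIA5, ABCC1 and CREB3L4. Nearness was measured as the root mean square difference of log2(CPM + 0.5) after subtraction of the R1881 mean of each gene, among 12163 other genes with a mean of at least 5 CPM, and it was between 0.070 and 0.087 for these 5. PLPP1, which encodes a lipid phosphate phosphatase, had 532 ± 16.5 CPM (SD, n = 10) in the R1881 libraries and 166 ± 6.80 CPM (SD, n = 5) with enzalutamide added. ABCC1, which encodes a drug efflux transporter, had 286 ± 11.7 and 93.3 ± 5.19 CPM. PDIA5, a protein disulfide isomerase of the endoplasmic reticulum, had 81.9 ± 1.88 and 24.5 ± 0.792 CPM, and the transcription factor gene CREB3L4 had 258 ± 9.60 and 76.8 ± 0.645 CPM. Their log2 fold changes lay between -1.74 and -1.61, beside -1.65 for CAMKK2. This likeness follows from the choice of the genes, since the difference between treatments enters the measure of nearness.

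Other genes of the pathway were taken from 5 lists written by hand. Of 20 upstream partners and regulators of AMPK, 8 rose and 8 fell with enzalutamide by an adjusted p under 0.05 by limma, with a median log2 fold change of 0.00. That is 80% of the list, beside 62.5% of all tested genes (32.7% lower and 29.8% higher). SESN1 and SESN3 encode sestrins, stress-induced proteins that favour AMPK activity, and their log2 fold changes were 1.34 and 1.17. SESN1 had 214 ± 11.1 CPM (SD, n = 10) in the R1881 libraries and 540 ± 22.3 CPM (SD, n = 5) with enzalutamide added, and SESN3 had 220.3 ± 15.1 and 497 ± 29.3 CPM. CRBN, which encodes a substrate receptor of a ubiquitin ligase that binds AMPK alpha, rose by 0.63. Of those that fell, AK4, a mitochondrial adenylate kinase, changed most, from 334 ± 19.8 to 193 ± 8.71 CPM (log2 fold change -0.79). FNIP2, a partner of folliculin, fell by 0.43 on the log2 scale, with libraries that overlapped between treatments, and PPM1E, a phosphatase that can act on AMPK, fell by 0.33. With library totals set to 1000000, 5 genes of this list fell in place of 8. The genes of the partners of LKB1 showed small differences. CAB39 rose by 0.17 and STRADA by 0.23, the latter with libraries that overlapped between treatments. CAB39L and STRADB, with log2 fold changes of 0.03 and -0.02, did not pass the test.

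Of 14 further members of the AMPK family, most of which are kinases activated by LKB1, 12 were tested, and 9 rose and 2 fell, with a median log2 fold change of 0.39 beside -0.01 for all tested genes. The share that passed was 91.7%, beside 62.5% of all tested genes. NUAK2, SNRK and MARK1 rose most, by 0.87, 0.80 and 0.79 on the log2 scale. SNRK had 30.6 ± 1.84 CPM (SD, n = 10) in the R1881 libraries and 53.5 ± 2.22 CPM (SD, n = 5) with enzalutamide added, while NUAK2 was low in both, at 2.02 ± 0.358 and 4.07 ± 0.483 CPM. MELK, a kinase of this family that is known to be expressed in dividing cells, fell from 39.9 ± 5.07 to 17.6 ± 2.28 CPM (log2 fold change -1.16). Genes of cycling cells moved with the treatment as well. All 8 examined (MKI67, TOP2A, CCNB1, CCNA2, AURKA, BUB1, PLK1 and CDK1) fell, and their summed expression was between 657 and 869 CPM with R1881 and between 364 and 432 CPM with R1881 + enzalutamide. Their part in the differences described here was not tested. MARK2, a regulator of microtubules, had a log2 fold change of -0.20, with libraries that overlapped between treatments. It did not pass with library totals set to 1000000 (adjusted p = 0.105 by limma).

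The CaM kinase family list holds the kinases downstream of the CaM kinase kinases together with other calmodulin-dependent kinases and the inhibitors of CaMKII. Of its 16 genes 11 had values, and of these 8 rose and 3 fell, with a median log2 fold change of 0.52. All 11 thus passed the test, beside 62.5% of all tested genes. CAMK1, which encodes a substrate of CaMKK1 and CaMKK2, fell from 51.3 ± 2.48 CPM with R1881 (SD, n = 10) to 27.8 ± 1.76 CPM with R1881 + enzalutamide (SD, n = 5), while its paralog CAMK1D rose from 1.64 ± 0.309 to 8.72 ± 1.10 CPM. CAMK2N1, an inhibitor of CaMKII, rose from 87.8 ± 5.85 to 498 ± 17.3 CPM (log2 fold change 2.50), and its paralog CAMK2N2 fell by 0.50 on the log2 scale from a low level, with overlapping libraries. DAPK1, which encodes a death-associated protein kinase, rose from 1.63 ± 0.254 to 23.4 ± 2.19 CPM (log2 fold change 3.49), and DAPK3 fell by 0.33, with overlapping libraries. A rise of at least 2-fold was found for 4 of the 11 genes and for 3.26% of all tested genes.

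Of 40 genes whose proteins are known as direct substrates of AMPK, 39 were tested. With enzalutamide 16 fell and 10 rose, and the median log2 fold change was -0.09. The 66.7% that passed is close to the 62.5% of all tested genes. Those that fell most were TBC1D1 and TBC1D4, regulators of the traffic of glucose transporters, and PFKFB2, which controls the rate of glycolysis. TBC1D1 had 229 ± 8.31 CPM (SD, n = 10) in the R1881 libraries and 65.8 ± 2.04 CPM (SD, n = 5) with enzalutamide added, a log2 fold change of -1.79, and its values with enzalutamide lay below every R1881 library. TBC1D4 fell from 33.996 ± 1.94 to 11.3 ± 1.44 CPM and PFKFB2 from 121.5 ± 9.91 to 43.6 ± 2.18 CPM. Of the substrates that rose, TXNIP, which restrains glucose uptake, went from 166 ± 31.8 to 409 ± 17.5 CPM. PLD1, a phospholipase, rose from 0.264 ± 0.0719 to 19.1 ± 1.79 CPM, and its log2 fold change of 4.69 understates the ratio because of the pseudocount. MLXIPL, which encodes the glucose-responsive factor ChREBP, was low in both treatments, at 0.740 ± 0.331 and 1.86 ± 0.480 CPM, and its log2 fold change was 0.95. A fall of at least 2-fold was found for 5 of the 39 genes and a rise of at least 2-fold for 2, beside 4.19% and 3.26% of all tested genes.

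Of 34 partners and targets of PGC-1alpha, 28 had values, of which 13 fell and 7 rose, with a median log2 fold change of -0.02. The 71.4% that passed compares with 62.5% of all tested genes. With library totals set to 1000000, 11 of them rose. VEGFA, an angiogenic factor, fell from 128 ± 7.97 CPM with R1881 (SD, n = 10) to 68.1 ± 2.07 CPM with R1881 + enzalutamide (SD, n = 5), and ACADM, an enzyme of fatty acid oxidation, from 178 ± 11.3 to 100.7 ± 7.53 CPM. PPRC1, which encodes a coactivator related to PGC-1alpha, fell by 0.55 on the log2 scale. The nuclear receptor genes ESRRG and PPARG rose by 1.02 and 0.74 from low levels of 1.31 ± 0.346 and 5.15 ± 0.703 CPM, and SIRT3, a mitochondrial deacetylase, rose by 0.49. The other PGC-1 family gene with values, PPARGC1B, was named after its values were seen. Its mean was 8.65 CPM in the R1881 libraries and 6.62 CPM with enzalutamide added, a log2 fold change of -0.36 (adjusted p = 0.000844 by limma). Libraries of PPARGC1B overlapped between treatments.

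**Figure D5:**
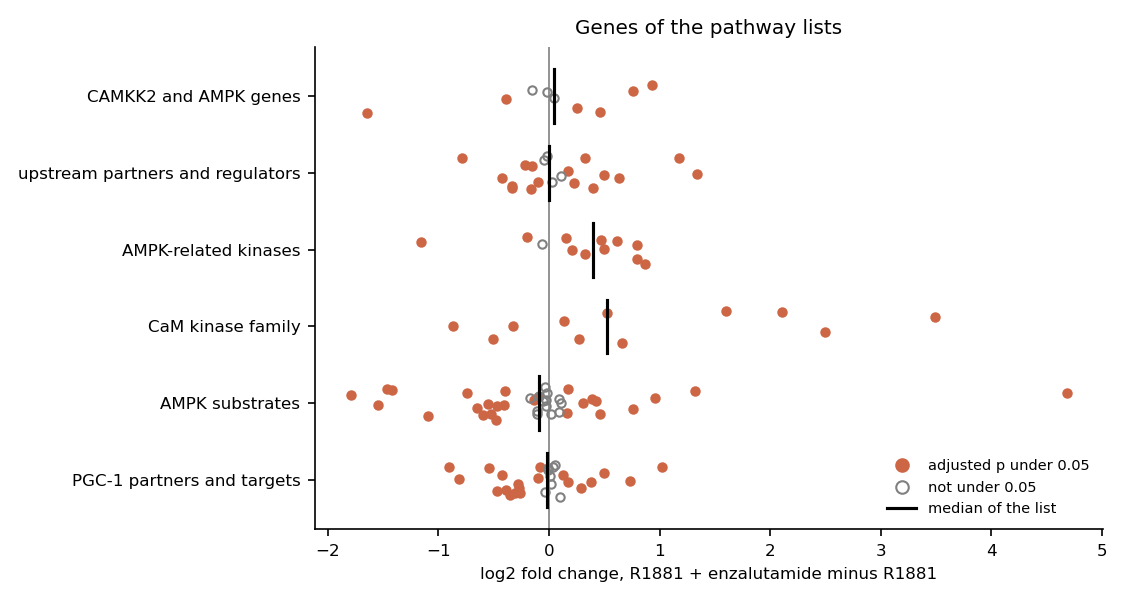
Log2 fold change (R1881 + enzalutamide minus R1881) of each tested gene of the 9 genes described and of the 5 pathway lists, with filled points for an adjusted p under 0.05 by limma, open points for the others and a black line at the median of the list. Medians range from -0.09 for the AMPK substrates to 0.52 for the CaM kinase family.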

How the data were processed

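Polyadenylated RNA of 15 LNCaP libraries was sequenced as single-end reads. Per the labels, the authors' tools were bcl2fastq 2.17 for base calls, STAR for alignment to GRCh38 and featureCounts of Subread for counting on genes. Versions of the other tools, the annotation, the strand setting, the gene filter and the scaling were not stated. The deposited values are a normalized signal per gene, called CPM in the study. Columns sum to between 1053406 and 1078567 for R1881 and between 985580 and 1008992 for R1881 + enzalutamide, so the sums do not overlap between treatments. Dividing by the worth of 1 read gave whole numbers, within 0.01, for 100% of values, and thus the reads per library. The columns without a sample numbered 0. Groups follow the sample labels, and the methods of the study state the group sizes the other way round. The study calls the libraries biological replicates. Whether they came from separate cultures is not stated, so p-values measure the spread between these libraries. In each of 55 pairs of the same treatment, libraries differed by more than sampling noise (chi-square over its degrees of freedom 1.63 or more).

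Genes were tested with limma 3.58.1 in R 4.3.3 (mean-variance trend, log2(CPM + 0.5), mean of at least 0.5 CPM, no covariates, Benjamini-Hochberg adjustment over all genes, threshold 0.05), so fold changes of low genes are understated. The fit was tested on simulated counts in which 200 of 17046 genes differed 2-fold, and it recovered 100% of them and called 4 others. A far larger share of genes was called in the real data. The simulated counts held no trend on GC content, so they cannot show how the fit behaves with either. Ratios were tested with SciPy 1.17.1. edgeR 4.0.16 (quasi-likelihood test) on the recovered reads called 10744 genes and DESeq2 1.42.0 called 10552, beside 10660 with limma. The number of libraries and counting error limit the precision. Positions and exonic lengths are from GENCODE v44 on GRCh38, and promoters from RefSeq. GC content was available for 85.8% of genes and for all 9 genes described.

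The genes described and the lists were chosen with earlier results of these data known. Of each pathway list, the text names the 3 lowest and 3 highest genes with an adjusted p under 0.05 and a mean of at least 1 CPM, and the genes added to these are CAB39, CAB39L, STRADA, STRADB and PPARGC1B, named after their values were seen. Alternatives were the pseudocount (0.1 and 1), the filter, the scaling, the test, a replicate block, each R1881 series alone and each library left out. Removal of the trend on GC content (a spline with 5 degrees of freedom), leaving out libraries 73, 74 and 83, and replicates 1 to 5 alone were added after the data were seen. The result of 1 marker of the cell line and of a motif search is not reported here.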

Additional observations from a re-analysis of the deposited data

Results flagged for a closer look

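The 9 genes and 5 ratios were searched in each treatment for a single library lying apart, which makes 28 groups of values. It was found in 3 of them, and by chance about 1.4 would be. PRKAB2 was expressed at 32.6 CPM in R1881 replicate 6 and at between 36.2 and 38.7 CPM in the other R1881 libraries. Without this library its log2 fold change was -0.407, beside -0.387 with all libraries. With each library left out in turn, this one included, it ranged from -0.41 to -0.35. PRKAG2 was expressed at 20.8 CPM in R1881 + enzalutamide replicate 2 and at between 24.5 and 26.0 CPM in the other R1881 + enzalutamide libraries. The log2 ratio of PRKAG1 to PRKAG2 was 2.50 in the same library and between 2.33 and 2.36 in the others. The deviations of both libraries from their group means went with gene GC content (Spearman's rho over genes 0.73 and 0.70), and the part of GC content in these values was not tested.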

How the results depend on the processing

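CAMKK2, PRKAA1, PRKAA2, PRKAB1, PRKAB2, PRKAG2 and CAMKK1 kept their direction and their side of the threshold under each of 30 alternatives, with log2 fold changes between -1.66 and -1.56 for CAMKK2, between 0.73 and 0.85 for PRKAA1 and between 0.83 and 1.02 for PRKAA2. With the trend on GC content removed, an alternative chosen after seeing the data, STK11 passed the test at -0.14 (adjusted p = 0.00333 by limma, with a range from 0.00333 to 0.590 over its alternatives), and the cause was not tested. PRKAG1 changed sign to 0.028 with edgeR, 0.010 without libraries 73, 74 and 83, 0.077 with library totals set to 1000000 and 0.0086 without R1881 + enzalutamide replicate 2, and lay between -0.034 and 0.0086 with each library left out. Library totals set to 1000000 also moved the upstream partners that fell to 5, the AMPK-related kinases that fell to 1 and the PGC-1 partners that rose to 11, since this scaling moved the median of all genes from -0.01 to 0.08. The difference in the log2 ratio of PRKAA1 to PRKAA2 did not pass with a pseudocount of 1 (-0.13), against the R1881 libraries 71 to 75 (-0.15) and without libraries 73, 74 and 83 (-0.16), and lay between -0.20 and -0.12 with each library left out, where it did not pass without R1881 replicates 5, 6, 7, 9 or 10 or R1881 + enzalutamide replicates 1, 3 or 5. Same-numbered libraries did not deviate together (correlations between -0.068 and 0.074 over 5 numbers, and 0 of 5 libraries closest to its own number). With a replicate block 5261 genes fell and 4787 rose, beside 5370 and 4889 for the same libraries without it, and calls of the 9 genes were the same. For the ratios with the block, an exact test over sign changes of 5 pairs cannot give a p under 0.0625, and the differences were -1.65 for CAMKK2 to CAMKK1, -1.47 for CAMKK2 to STK11, -0.14 for PRKAA1 to PRKAA2, 0.62 for PRKAB1 to PRKAB2 and -0.52 for PRKAG1 to PRKAG2.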
